A study of Mus musculus with 8 samples.

Results

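The genes of mouse chromosome 13 were followed in embryonic stem cells in which Trim71 or Mbnl1 had been altered. Members were selected on their read counts, as all genes that GENCODE M21 places on chromosome 13 of mm10 with at least 10 counts in at least 2 of the 8 libraries, whatever the group. This gave 675 members of 1441 chromosome 13 genes in the count files, against 18140 genes with the same minimum in the whole genome. The count minimum is therefore no finding, and the chromosome itself was chosen for description with earlier results of these data known. The minimum was met in all 8 libraries by 591 members and through a single group by 5 (3 through overexpression, 1 through the knockout and 1 through wild type). Just inside it, 13 members met it in exactly 2 libraries, with a highest count of 44, and just outside it, 20 genes met it in 1 library, with a highest count of 17. The test kept 669 members. The 6 left out (Eci3, Ppp1r3g, Hist1h2br, Zfp389, Gm6211 and Gm16907) had no count above 14.

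All 4 groups, of 2 libraries each, were mouse embryonic stem cells of 129xC57BL/6 background that carry Cre-ERT2 and BirA-V5 at Rosa26, grown on gelatin in medium with serum and LIF, and no group was given another agent. The parental cells are called wild type here. The knockout is TRIM71-/-, the mutant is homozygous for Mbnl1 3'UTR(mut), a changed 3' untranslated region of Mbnl1, and overexpression is a stable transfection of MBNL1::T2A::Puromycin. TRIM71 is an RNA-binding protein that represses its target transcripts, and MBNL1 is a regulator of alternative splicing. The labels do not say whether a group is 1 clone or how many cultures it comes from, so clone and genotype cannot be told apart, and each p-value reflects no more than the variation among the 8 libraries, which may be technical. In bulk RNA, fewer cells that express a gene and less RNA per cell cannot be told apart.

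C2H2 zinc finger proteins bind DNA through a row of small repeated domains, each folded around a zinc ion. Many also carry a KRAB domain, which recruits TRIM28 and silencing chromatin, in embryonic stem cells mostly at transposable elements. Their genes lie side by side in clusters that grew by duplication, so that neighbours have similar exons. Chromosome 13 in mouse also holds the largest cluster of histone genes and the Serpinb, prolactin and placental cathepsin families, along with single genes of wide use in development such as Ptch1, Gli3 and Sox4.

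The zinc finger genes were told apart from other genes by their coding sequence: at least 3 matches of the C2H2 pattern in the translated protein. Of 48 such members, 40 lay in 3 clusters in which each gene starts at most 1 Mb after the one before it, and 8 lay outside. Cluster 1 (mm10 chr13:21362820-21960779) had 6 members, cluster 2 (chr13:62129886-62785808) had 5, and cluster 3 (chr13:65278814-67827002) had 29. A pattern of the KRAB domain was found in 28 of the 40, in none of cluster 1, all 5 of cluster 2 and 23 of cluster 3. It was 1 fixed pattern of residues that misses KRAB domains of another sequence, so genes without a match may still carry the domain. Between 1 finger and the next runs a conserved linker, and 39 of the 40 had at least 1 match of it. The first linker of 5 of the genes described below is printed to show what the repeated stretch looks like: 30 bases of the coding strand (GENCODE M21, mm10), 5′ to 3′, with the 7 linker codons in capitals.
Zfp808: catACTGGAGAGAAACCCTTCAAAtgtaat
2410141K09Rik: catACTGGAGAGAAACCTTATGAAtgtaat
Gm10324: catACTGGAGAGAAACCTTATAAAtgtaat
Zkscan8: cacACTGGAGAGAAACCCTATCAGtgtact
Zkscan3: cacACTGGTGAGAAGCCATATGAGtgtgaa

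Against Zfp808 of cluster 2, the stretch differed at 4 bases in 2410141K09Rik and 3 in Gm10324, both of cluster 3, and at 6 in Zkscan8 and 10 in Zkscan3, both of cluster 1. The stretch was found by the linker pattern, so its likeness was fixed by that choice. Sharing was measured apart from it, over whole transcripts. Over 10% of the 75-base windows of the longest transcript, the length of a read, also occurred in a transcript of another gene in 136 of 664 members, 13 of the 40 zinc finger cluster genes and 46 of 53 histone genes. Reads of these genes may have been given to either copy. Counts were near 0 on the opposite strand (a median of 0.393 counts per kb for 207 noncoding genes inside an expressed gene, against 34.6 for 131 on its strand), but 47 members share exons with another gene on their own strand.

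Library totals ranged from 75056306 to 86508533 counts, of which chromosome 13 took 3.37 to 3.66%, and 3 counts equal 0.0347 to 0.04 CPM (counts scaled to the library total). Trim71, which is not on this chromosome, went from 630 and 628 CPM in wild type to 101 and 105 in the knockout. Mbnl1 was at 25.9 and 26.1 CPM in wild type, against 48.8 and 50.9 (knockout), 28.6 and 27.4 (mutant) and 193 and 195 (overexpression). All 8 embryonic stem cell markers reached 1 CPM, summed to 4120 to 5360 CPM. Fibroblast markers summed to 4.82 to 9.38 CPM and 2-cell-like markers to at most 0.0579, with Gm4340, Tcstv3 and Tcstv1 at 0. The 5 primitive endoderm markers had single values from 0.231 to 12.8 CPM. They summed to 5.79 and 6.32 CPM in the knockout against 23.9 and 28 in wild type, with the mutant at 35.1 and 40.5 and overexpression at 20.6 and 17.6. Neural markers summed to 58.3 and 60.4 CPM in the knockout, against 93.1 to 119 in the other libraries. The 4 neural markers had single values from 1.99 to 90.6 CPM, so 1 gene made up most of the sum in at least 1 library.

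The question of each comparison with wild type was which genes change when TRIM71 is lost, when the Mbnl1 3'UTR is changed, or when MBNL1 is raised. The 3 comparisons share the wild-type libraries. A member was called at an edgeR adjusted p under 0.05, adjusted over all 18055 genes tested. In the knockout 154 of 669 members rose and 135 fell, which is 289 or 43.2%, against 44.8% of all genes (24.1% higher, 20.7% lower). In the mutant 51 rose and 43 fell, 94 or 14.1% in all, against 15.5% of all genes (8.02% higher, 7.5% lower). Without wild-type replicate 1 the mutant's 94 became 60. The 2 mutant libraries differed most from each other, with a chi-square per degree of freedom over the members' counts of 15.98 against 2.538 to 5.627 within the other groups. In overexpression 105 rose and 237 fell, 342 or 51.1%, against 54.8% of all genes (27.7% higher, 27.1% lower).

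The overexpression cells stood out by direction, not by the number of calls: 35.4% of the members fell and 15.7% rose. With libraries scaled by their totals alone, 132 members rose and 187 fell. The median log2 difference under that scaling was 0.044 over all genes and -0.06 over the members. In the main fit the median of the 669 members was -0.115 in overexpression, -0.016 in the mutant and -0.007 in the knockout. Over all genes it was -0.010, -0.006 and -0.005. Both overexpression libraries lay below the wild-type mean, with medians of -0.112 and -0.102. Among 20 chromosomes this was the second lowest median in overexpression, after the X at -0.192 and before chromosome 12 at -0.105, while chromosome 2 stood at 0.323. Base composition moved with it: among genes of the other autosomes, chromosome 2 left out, the overexpression medians of 5 classes of about equal size, from the lowest GC content to the highest, were -0.109, -0.080, -0.041, 0.041 and 0.168. The chromosome 13 genes outside the zinc finger clusters had -0.171, -0.105, -0.032, -0.113 and -0.067, so that they lay lower in 4 of 5 classes and slightly higher in the middle one. The part of GC content or of chromosome 2 in the medians of chromosome 13 was not tested.

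**Figure D1:**
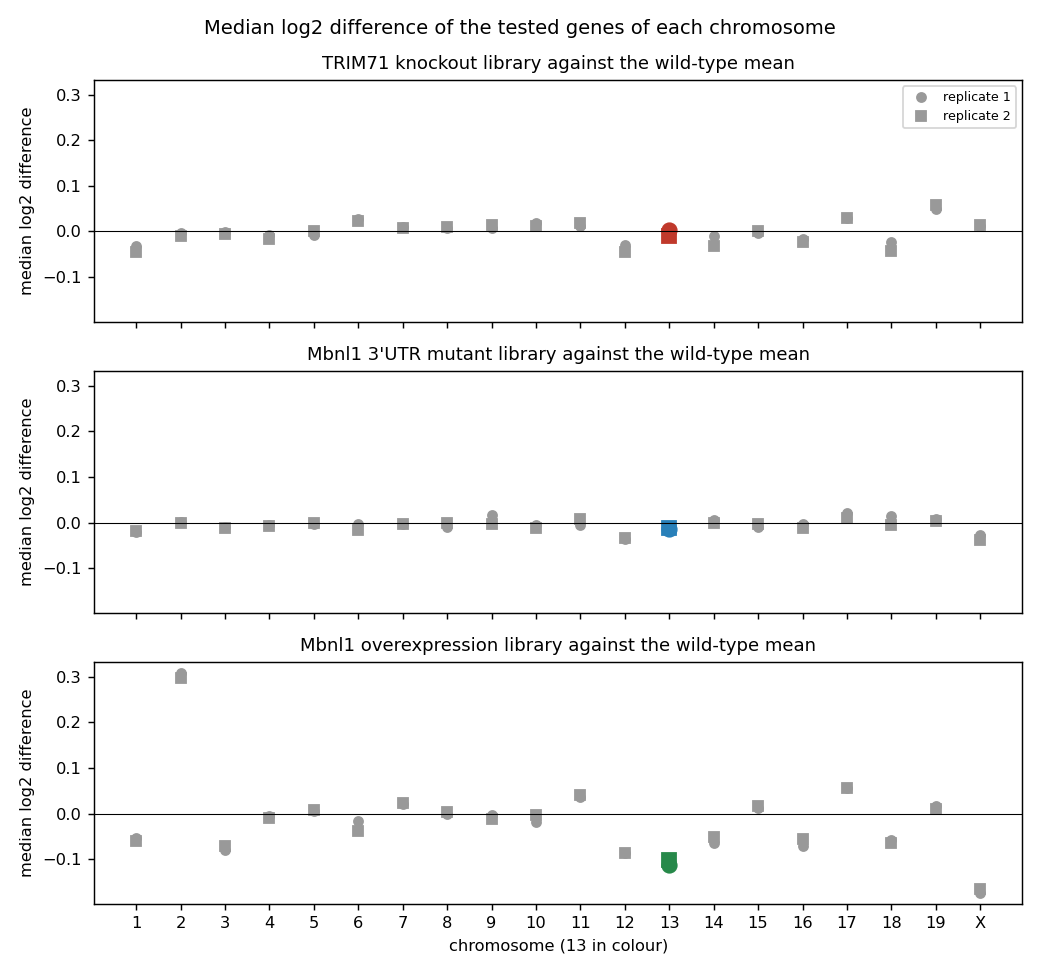
Median log2 difference of the tested genes of each chromosome, for each library against the mean of the wild-type libraries, with chromosome 13 in colour and circles and squares for replicates 1 and 2. Chromosome 13 sits at 0.003 and -0.009 in the knockout, at -0.014 and -0.013 for the mutant, and at -0.112 and -0.102 in overexpression, where chromosome 2 lies highest and X lowest.

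Along the chromosome, genes outside the zinc finger clusters filled 24 windows of 5 Mb with at least 5 tested genes. In overexpression 19 of the 24 window medians (79.2%) lay below the median of all genes, against 17 (70.8%) in the knockout and 14 (58.3%) in the mutant. The overexpression median was lowest at -0.979 from 25 to 30 Mb. That window holds 8 tested genes with a median level of 0.788 CPM. Of these, 5 fell and none rose, and the window medians of the 2 overexpression libraries lay at -0.712 and -1.065. The highest was 0.107, from 40 to 45 Mb, where 9 of 22 genes rose and 6 fell. In the knockout the highest was 0.191, from 30 to 35 Mb, the stretch with the Serpinb genes, where 13 of 31 rose and 3 fell. Next came 0.142 from 20 to 25 Mb, the stretch with the histone genes, where 35 of 87 rose and 4 fell. The lowest knockout median was -0.257, from 115 to 120 Mb, with 2 of 19 higher and 7 lower. The mutant stayed within -0.191 and 0.071.

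The genes of the lowest overexpression window are named here after their values were seen. Sox4, a transcription factor of progenitor cells, stood at 32.5 and 33.9 CPM in wild type, against 29.5 and 28.2 (knockout), 27.3 and 24 (mutant) and 14.7 and 13.7 (overexpression). Every altered library was below both wild-type libraries, and the overexpression libraries were lowest, with a log2 difference of -1.23 ± 0.0619 (SE, edgeR adjusted p = 2.87e-10). Nrsn1, which encodes a vesicle membrane protein of neurons, went from 1.06 and 1.03 CPM to 0.201 and 0.299 in overexpression (log2 difference -2.07). 2610307P16Rik went from 1.44 and 1.1 CPM to 0.268 and 0.265 (-2.25), and Dcdc2a, a doublecortin family gene, from 0.393 and 0.252 to 0.0335 and 0.0576 (-2.80). The overexpression values of Dcdc2a lay near those of 3 counts, 0.0347 and 0.0353 CPM in these libraries, so its difference rests on few reads. In contrast E2f3, a transcription factor of cell cycle entry in the same window, was at 57.9 and 58 CPM in wild type and 60.1 and 60.1 in overexpression, and 78.8 and 80.8 in the knockout.

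**Figure D2:**
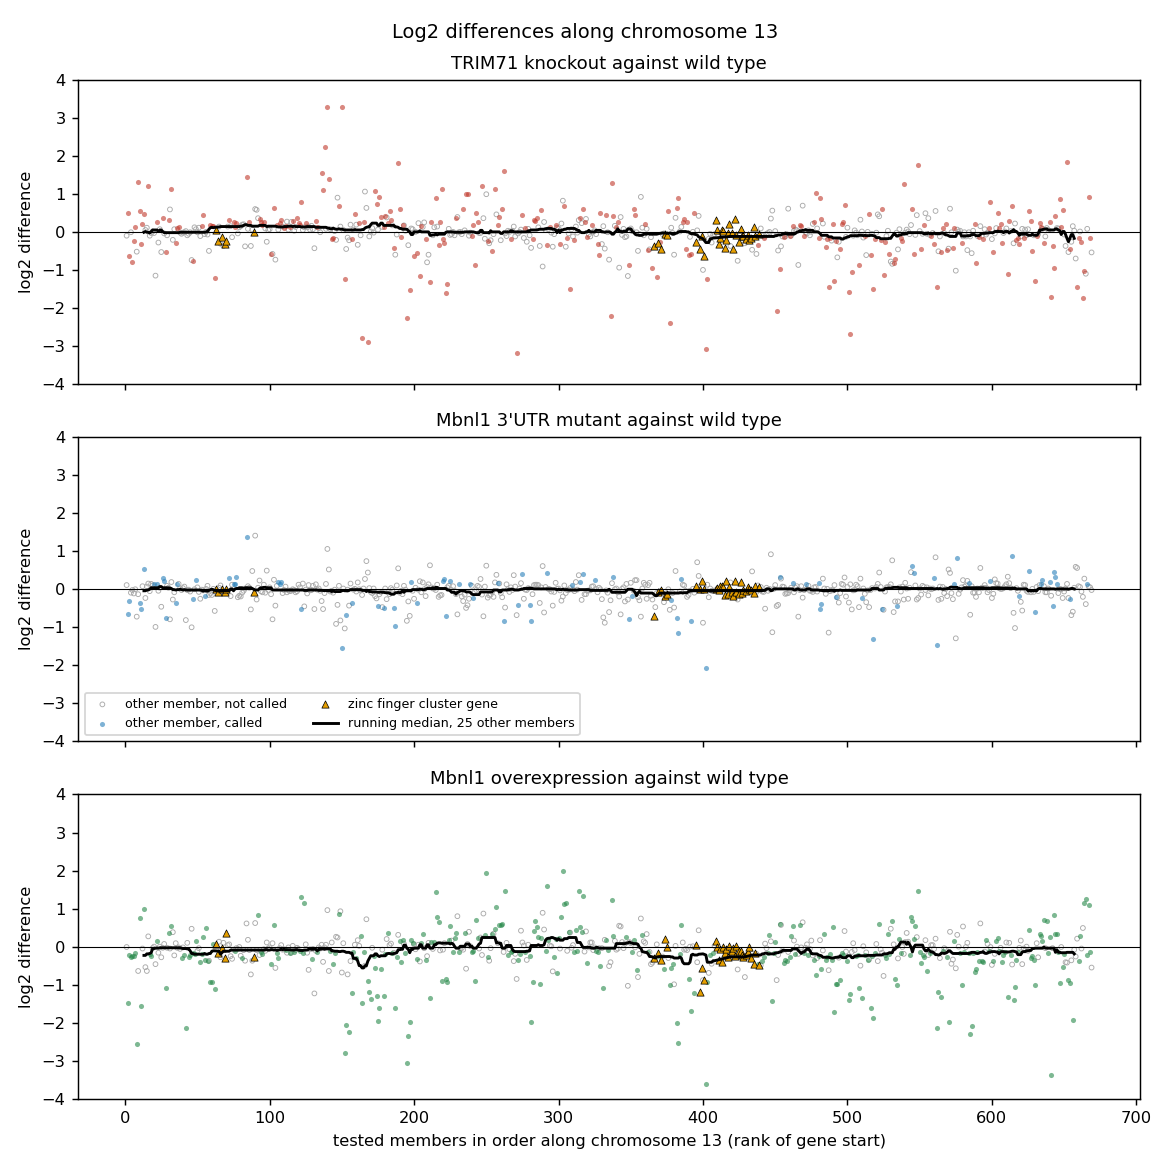
Log2 difference from wild type of the 669 tested members in their order along chromosome 13, in the 3 altered groups, with filled points for called members, open points for the rest, triangles for zinc finger cluster genes and a running median over 25 of the other members. In overexpression the running median lies below 0 over most of the chromosome and above it near the middle, while in the mutant it stays close to 0.

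Zinc finger cluster genes fell more often than they rose in the knockout and in overexpression, by small amounts. In the knockout 15 of 40 fell and 3 rose (median log2 difference -0.116). In overexpression 17 fell and 1 rose (-0.161), and in the mutant 1 fell and 1 rose (-0.004). Of the 629 other members, 220 fell and 104 rose in overexpression (-0.113), so falls outnumbered rises there outside the clusters as well. In the knockout 120 of these other members fell and 151 rose (0.002), and in the mutant 42 fell and 50 rose (-0.017). Over all genes 20.7% fell and 24.1% rose in the knockout. The shares were 27.1% and 27.7% in overexpression, and 7.5% and 8.02% in the mutant. Without knockout replicate 1 the knockout's 15 became 9. Zinc finger genes of the other chromosomes, chromosome 2 left out, fell in 36.3% and rose in 17.0% of 424 tested in the knockout, where the cluster genes had 37.5% and 7.5%. In overexpression they fell in 38.7% and rose in 18.4%, beside 42.5% and 2.5% of the cluster genes. Among the 27 cluster genes with at most 10% shared windows, 10 fell and 3 rose in the knockout, and 9 fell and 1 rose in overexpression. The cluster genes were poor in GC, with a median of 39.3% against 47.7% for the other members. The lowest of the 5 GC classes held 35 of the 40. Genes of the other autosomes in that class, chromosome 2 left out, had medians of -0.068 in the knockout and -0.109 in overexpression. The part of GC content in these falls was not tested, and no test of the clusters against other genes was made.

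The summed level of the 40 cluster genes was 719 and 744 CPM in wild type, against 657 and 644 (knockout), 722 and 692 (mutant) and 630 and 625 (overexpression). The knockout and overexpression sums lay below both wild-type sums, and the mutant overlapped with wild type. Cluster 1 differed from this order, at 144 and 149 CPM in wild type, against 133 and 135 (knockout) and 148 and 145 (overexpression). The cluster 2 sum was lowest in the mutant, with 78.8 and 75.8 CPM against 105 and 111 in wild type. Of its 5 genes, however, 1 was called lower in the mutant, Zfp808, described below. The median log2 difference of the 5 was -0.124 in the mutant, -0.296 in the knockout and -0.169 in overexpression. Cluster 3 was lowest in overexpression, with 393 and 390 CPM against 470 and 484.

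Without 2410141K09Rik, cluster 3 summed to 389 and 401 CPM in wild type and 349 and 345 in overexpression. This gene of cluster 3 (chr13:66418114-66441118), whose protein has 14 matches of the finger pattern, was at 80.7 and 82.6 CPM in wild type, against 54.2 and 51.2 (knockout), 84.5 and 79 (mutant) and 44.6 and 44.8 (overexpression). Knockout and overexpression libraries lay below all wild-type and mutant ones. The log2 differences were -0.63 ± 0.0432 for the knockout (edgeR adjusted p = 1.93e-08), 0.00 for the mutant and -0.87 ± 0.0435 for overexpression (2.65e-10). Its neighbour Gm10324, with 19 finger matches and 46.7% shared windows, went from 11.9 and 13.3 CPM to 9.19 and 9.12 in the knockout and to 5.24 and 5.74 in overexpression. That was the largest fall of a cluster gene in overexpression, with a log2 difference of -1.20 ± 0.0957 (edgeR adjusted p = 9.9e-08), and its counts may include reads of its copies. By gene symbols alone, neither Gm10324 nor 2410141K09Rik was a cluster gene. Zfp640, a transcribed pseudogene in the same stretch and no cluster gene by the rule, was at 8.08 and 8.66 CPM in wild type, against 3.46 and 3.58 (knockout) and 4.37 and 4.37 (overexpression).

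Zfp459 was 1 of 3 cluster genes called higher in the knockout and the 1 called higher in the mutant. It has 3 finger matches and was at 45.2 and 47.1 CPM in wild type, against 59.9 and 58.1 (knockout), 54.3 and 53.7 (mutant) and 38.4 and 39.4 (overexpression). Knockout and mutant libraries lay above wild type and overexpression below it, with log2 differences of 0.35 ± 0.0402 (edgeR adjusted p = 4.01e-06), 0.23 ± 0.0403 (0.00116) and -0.25 ± 0.0407 (0.000102). Zfp712 and Zfp953 were also called higher in the knockout, by log2 0.32 and 0.20. Leaving out a library took these calls to an edgeR adjusted p of 0.0504 and 0.0547 for Zfp712 (without wild-type replicate 2 or knockout replicate 2) and 0.0554 for Zfp953 (without wild-type replicate 1).

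In cluster 2, Zfp808, with 22 finger matches, was the cluster gene that changed most in the mutant. It stood at 72.6 and 76.1 CPM in wild type, against 59.4 and 56.1 (knockout), 46.6 and 44.2 (mutant) and 60.3 and 60.3 (overexpression). All altered libraries lay below wild type, lowest in the mutant, with log2 differences of -0.37 ± 0.0431, -0.71 ± 0.0436 and -0.30 ± 0.0429 (edgeR adjusted p = 5.97e-06, 5.55e-08 and 2.29e-05). Of its windows, 26.7% are shared. Zfp934, which shares exons with Zfp935, fell in the knockout from 9.34 and 9.64 CPM to 7.13 and 6.79 and in overexpression to 7.34 and 7.45, and stayed at 9.5 and 9.31 in the mutant.

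In cluster 1, whose genes belong to the ZKSCAN, ZSCAN and ZFP families, Zkscan8 was the single cluster gene called higher in overexpression. It was at 19.8 and 22.1 CPM in wild type, against 17.3 and 18.3 (knockout), 21.2 and 21.3 (mutant) and 27.3 and 26.7 (overexpression). The overexpression libraries lay above all others, by a log2 difference of 0.37 ± 0.0549 (edgeR adjusted p = 3.88e-05). Zkscan3, a repressor of autophagy genes, was at 27.1 and 26.9 CPM in wild type and 23.3 and 22.6 in the knockout (log2 difference -0.24). Zfp184 fell in overexpression, from 15.1 and 15.1 CPM to 12.7 and 12.4 (-0.27), and was at 15 and 15 in the knockout.

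**Figure D3:**
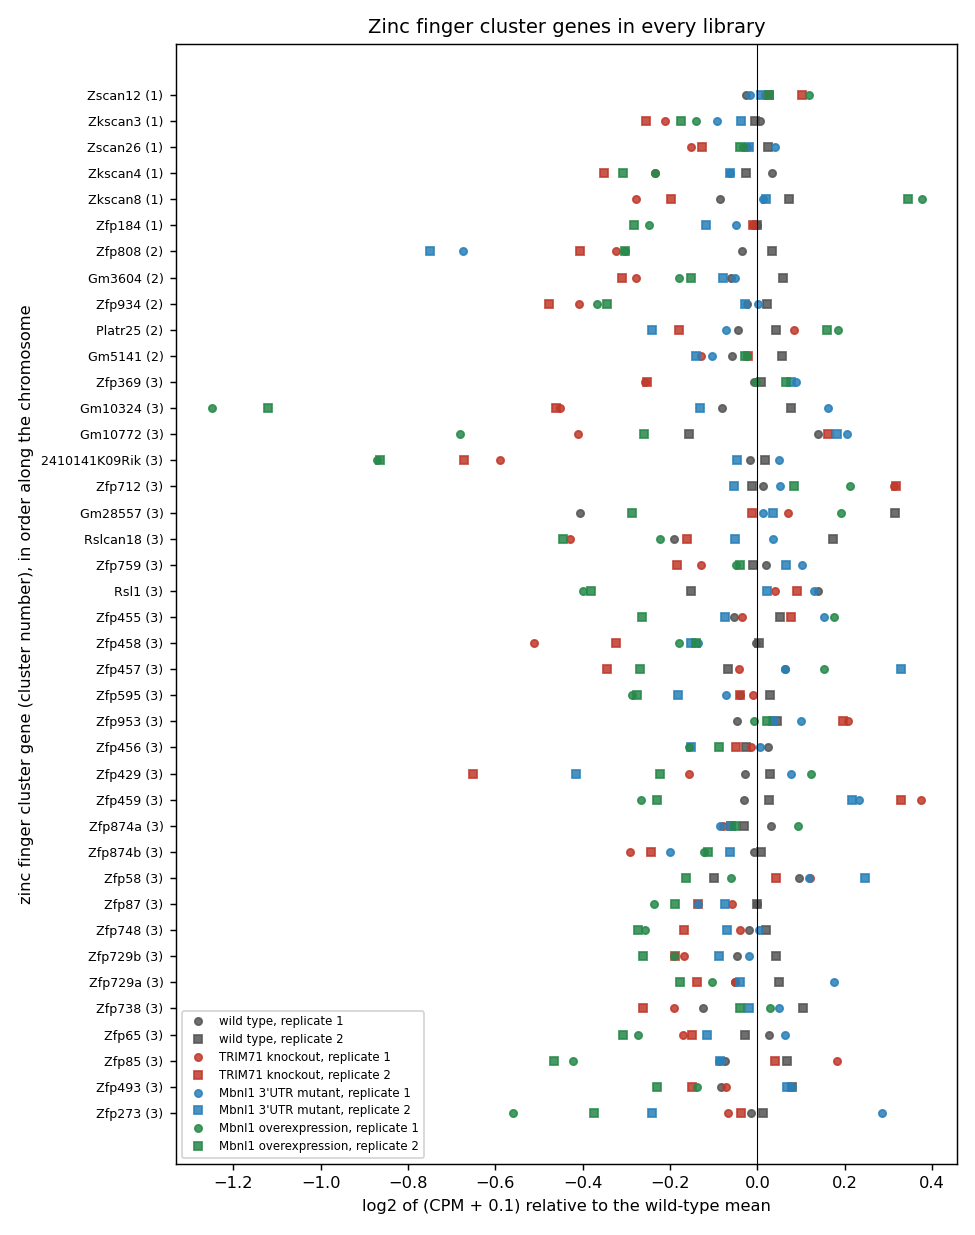
Level of the 40 zinc finger cluster genes in each library, as log2 of CPM + 0.1 relative to the wild-type mean, in order along the chromosome, with colour for the group and marker shape for the replicate. Most knockout and overexpression points lie between -0.5 and 0.2, with Gm10324 and 2410141K09Rik furthest down in overexpression and Zfp808 in the mutant.

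Histones package DNA, and most of these genes are expressed with DNA replication. In the knockout 27 of 53 tested histone genes were called higher and none lower (median log2 difference 0.16). In the mutant 9 were higher and 1 lower, and in overexpression 1 was higher and 13 lower (median -0.09). Over all genes 24.1% were higher and 20.7% lower in the knockout. The shares were 8.02% and 7.5% for the mutant, and 27.7% and 27.1% for overexpression. The summed level was 8430 and 8160 CPM in wild type, against 9110 and 9220 (knockout), 7990 and 8570 (mutant) and 7720 and 8010 (overexpression). The knockout sums lay above all others, while the mutant libraries lay on both sides of the wild-type ones. These counts depended on single libraries: the knockout's 27 ranged from 19 to 37 when 1 library was left out, the mutant's 9 higher became 4 without wild-type replicate 2 and 5 without either knockout library, and its 1 lower became 14 without mutant replicate 2. The 13 lower in overexpression became 4 without overexpression replicate 1, 5 without wild-type replicate 1 and 23 without either mutant library, and its 1 higher became 3 without wild-type replicate 1. A median of 45.7% of their windows are shared with other genes. Of the 7 with at most 10% shared, 4 were higher and 0 lower in the knockout, while the mutant had 0 higher and 1 lower, and overexpression 1 of each.

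Among the histone genes of at least 0.5 CPM on average, 3 testis variants moved furthest in the knockout. Hist1h2aa and Hist1h2ba, testis forms of H2A and H2B, neighbour each other. Hist1h2aa was at 1.63 and 1.38 CPM in wild type, against 3.05 and 3.38 (knockout), 1.21 and 0.897 (mutant) and 1.08 and 1.21 (overexpression). Hist1h2ba was at 0.659 and 0.583 CPM in wild type, against 1.75 and 1.87 (knockout), 0.411 and 0.594 (mutant) and 0.736 and 0.553 (overexpression). For both, the knockout libraries lay above all others, with log2 differences of 1.09 ± 0.14 and 1.54 ± 0.189 (edgeR adjusted p = 1.46e-05 and 9.37e-06). Hist1h1t, the testis H1, rose in overexpression, from 3.04 and 3.39 CPM to 8.57 and 7.28 (log2 difference 1.30 ± 0.0987, edgeR adjusted p = 2.82e-08), and in the knockout, to 5.59 and 5.5. Hist1h1e, a main somatic linker histone, was called in the knockout and in neither other comparison with wild type: it rose from 325 and 320 CPM to 408 and 425 (0.37 ± 0.0335), with the mutant at 309 and 315 and overexpression at 317 and 313. It shares exons with Hist1h2be and Gm11398.

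Some members changed the same way in each altered group. The long noncoding RNA Lncenc1, an embryonic stem cell transcript linked to glycolysis genes, was at 23.5 and 22.3 CPM in wild type, against 8.35 and 8.54 (knockout), 8.29 and 8.21 (mutant) and 5.28 and 5.23 (overexpression). No altered library came near wild type, with falls of 2.71-fold, 2.78-fold and 4.36-fold (edgeR adjusted p = 7.35e-11, 4.53e-10 and 7.51e-13). Plk2, a kinase of centriole duplication and stress response, was at 60.2 and 57.5 CPM in wild type, against 24.2 and 24.1 (knockout), 39.6 and 38.1 (mutant) and 28.8 and 29.5 (overexpression). It was lowest in the knockout, with log2 differences of -1.29 ± 0.044, -0.60 ± 0.0427 and -1.01 ± 0.0433 (edgeR adjusted p = 1.38e-11, 2.26e-07 and 4.7e-11). Klf6, a Krüppel-like transcription factor, fell from 78.5 and 75 CPM to 61.9 and 60.9, 53.6 and 53.5, and 26.7 and 25.8 in the same order.

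Upward, Pfkp, the platelet form of the glycolytic enzyme phosphofructokinase, was at 142 and 146 CPM in wild type, against 198 and 200 (knockout), 209 and 210 (mutant) and 292 and 284 (overexpression). Its levels did not overlap between wild type and any altered group, with log2 differences of 0.47 ± 0.0339, 0.54 ± 0.0339 and 1.00 ± 0.034 (edgeR adjusted p = 3.8e-08, 7.02e-08 and 4.71e-12). F2rl1, a receptor switched on by protease cleavage, was at 70.5 and 68.1 CPM in wild type, against 103 and 106 (knockout), 110 and 103 (mutant) and 113 and 109 (overexpression). The 3 altered groups lay within 103 and 113 CPM, all above wild type. Elovl7, a fatty acid elongase, and Snx18, an endosomal sorting nexin, also rose in all 3, by log2 0.56, 0.49 and 0.45 for Elovl7 and 0.43, 0.33 and 0.34 for Snx18.

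F2r, the thrombin receptor and neighbour of F2rl1, split the groups. It stood at 72.6 and 69.8 CPM in wild type, against 47.7 and 47.2 (knockout), 99.8 and 91.7 (mutant) and 82.8 and 81.6 (overexpression). Knockout libraries lay below wild type and those of the mutant and overexpression above it, with log2 differences of -0.59 ± 0.0439, 0.43 ± 0.043 and 0.21 ± 0.0431 (edgeR adjusted p = 4.99e-08, 6.89e-06 and 0.000801).

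Of 28 tested genes for ligands, receptors and their regulators, 9 rose and 10 fell in the knockout, and 6 rose and 7 fell in the mutant. In overexpression 7 rose and 11 fell. Over all genes 24.1% rose and 20.7% fell in the knockout, with 8.02% and 7.5% for the mutant and 27.7% and 27.1% for overexpression. Ptch1 (chr13:63508328-63573598), the Hedgehog receptor and itself a target of the pathway, was at 326 and 277 CPM in wild type, against 478 and 462 (knockout), 179 and 181 (mutant) and 72.5 and 77.1 (overexpression). The 4 groups did not overlap: the knockout lay above wild type and the mutant and overexpression below it. Its log2 differences were 0.64 ± 0.0679 (edgeR adjusted p = 7.1e-05), -0.75 ± 0.0685 (0.000133) and -2.01 ± 0.0713 (2.64e-08). Fst, the activin antagonist follistatin, named after its values were seen, showed a log2 difference of 0.87 in TRIM71-/- cells, 0.01 in the mutant and -0.96 with MBNL1 overexpressed. Arrdc3, an arrestin that sends receptors to endosomes, fell in overexpression from 119 and 121 CPM to 58.5 and 62.1. Pik3r1, a regulatory subunit of PI3-kinase, rose in the knockout from 9.87 and 9.75 CPM to 17.1 and 16.8, and Nedd9, an adhesion scaffold, from 1.08 and 0.796 to 2.04 and 2.11.

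**Figure D4:**
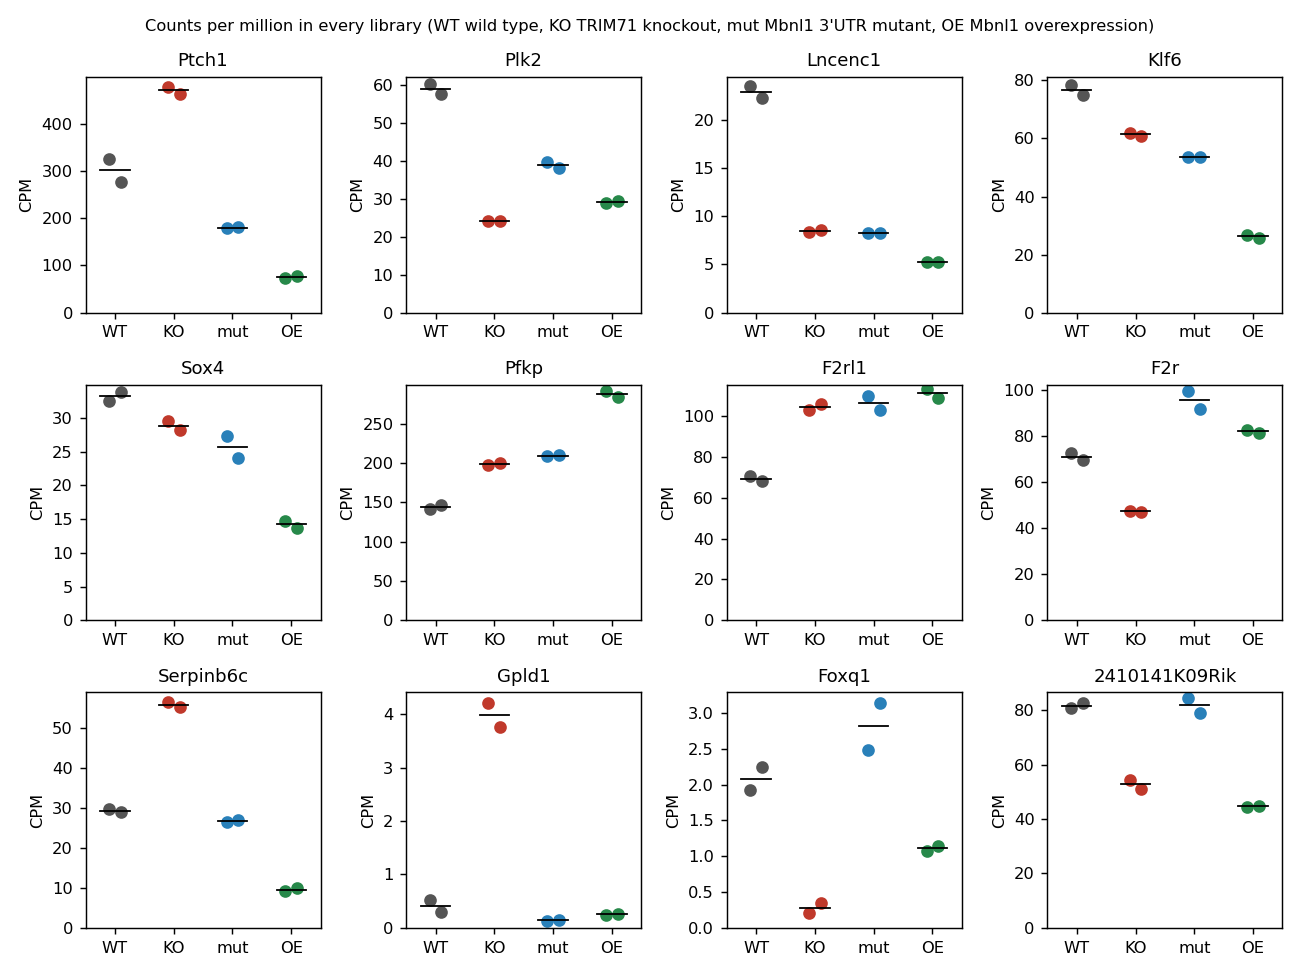
CPM of 12 members in every library, with a line at the mean of each group's 2 libraries and axes that start at 0. Lncenc1, Plk2, Klf6 and Sox4 lie below wild type in all altered groups and Pfkp and F2rl1 above it, while Ptch1 and Serpinb6c are highest in the knockout and lowest in overexpression.

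Of 21 developmental transcription factors, 9 fell and 4 rose in the knockout, where 20.7% of all genes fell and 24.1% rose. In overexpression 11 fell and 4 rose, beside 27.1% and 27.7% of all genes and 35.4% and 15.7% of the chromosome 13 members. In the mutant 2 fell and 4 rose, beside 7.5% and 8.02% of all genes. Foxq1, a forkhead factor, was at 1.93 and 2.24 CPM in wild type, against 0.21 and 0.352 (knockout), 2.49 and 3.14 (mutant) and 1.08 and 1.15 (overexpression). The knockout libraries were lowest, a 7.41-fold fall (edgeR adjusted p = 1.38e-07), and overexpression was lower by 1.86-fold (0.000401). Gli3, the Hedgehog transcription factor that mostly acts as a repressor, fell in the knockout from 13.5 and 11.6 CPM to 7.35 and 7.48. Irx2 fell in the knockout from 3.36 and 3.21 CPM to 1.65 and 1.68, and rose in overexpression to 5.36 and 4.57. Among those that rose in the knockout, Id4, an inhibitor of helix-loop-helix factors, went from 5.69 and 4.72 CPM to 11.8 and 12.2, and Phf2, a histone demethylase, from 6.25 and 6.33 to 13.5 and 14.1. The sums of primitive endoderm and of neural markers, given above, were lower in the knockout as well, and the part of such cells in these falls was not tested.

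All 5 tested Serpinb genes, which encode intracellular protease inhibitors, were called lower in overexpression, and 4 were higher in the knockout; in the mutant 1 was lower. Over all genes 27.1% were lower in overexpression, 24.1% higher in the knockout and 7.5% lower in the mutant. Without overexpression replicate 1 the 5 became 3. Serpinb6c was at 29.7 and 28.9 CPM in wild type, against 56.5 and 55.2 (knockout), 26.6 and 27 (mutant) and 9.25 and 9.87 (overexpression). It was highest in the knockout and lowest in overexpression, with log2 differences of 0.93 ± 0.0442 and -1.62 ± 0.05 (edgeR adjusted p = 4.2e-10 and 1.87e-12). Its neighbour Serpinb6a moved the same way with smaller differences, from 77.8 and 77.8 CPM to 102 and 103 in the knockout and 51 and 51.7 in overexpression. Serpinb9b was at 7.87 and 7.07 CPM in wild type, against 7.64 and 7.93 (knockout), 5.84 and 5.14 (mutant) and 1.77 and 2.07 (overexpression), so that it did not separate in the knockout. Serpinb9, the granzyme B inhibitor, had under 2 CPM in every library, and its calls in the knockout and in overexpression each ended when a library was left out (edgeR adjusted p = 0.215 without wild-type replicate 1 and 0.424 without knockout replicate 2; 0.0581 without wild-type replicate 2 and 0.0736 without overexpression replicate 1). Nqo2, a quinone reductase gene beside this family, stood at 47.1 and 45.1 CPM in wild type, against 51.4 and 48.8 (knockout), 31.8 and 33.5 (mutant) and 19.1 and 18.4 (overexpression).

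Of 26 genes of energy metabolism and mitochondria, 12 rose and 3 fell in the knockout, beside 24.1% and 20.7% of all genes. In the mutant 2 rose and 1 fell, beside 8.02% and 7.5% of all genes. In overexpression 7 rose and 12 fell, beside 27.7% and 27.1% of all genes. Aldh5a1, which breaks down the GABA product succinic semialdehyde, rose from 12 and 11.7 CPM to 18.9 and 19.3 in the knockout and 22.1 and 21.2 in overexpression, with 12.7 and 12.5 in the mutant. Tpmt, thiopurine methyltransferase, rose by log2 0.49 and 0.70 in the same pair. Ndufs6, a subunit of respiratory complex I, fell in overexpression from 60.1 and 59.9 CPM to 44.8 and 44.3. Of 28 genes of RNA processing and translation, 14 fell and 4 rose in overexpression, against 4 and 7 in the knockout and 0 and 4 in the mutant. Over the chromosome 13 members 35.4% fell and 15.7% rose in overexpression, and over all genes 27.1% and 27.7%. In the knockout 20.7% of all genes fell and 24.1% rose, and in the mutant 7.5% and 8.02%. Hnrnpa0, an RNA-binding protein of transcript stability, rose in all 3, from 132 and 149 CPM to 185 and 190, 179 and 170, and 176 and 163. Ddx41, a helicase, fell in overexpression from 113 and 109 CPM to 81.2 and 83.6, and Rps23, a ribosomal protein gene with 46.9% shared windows, from 753 and 731 to 579 and 592.

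Of 28 genes of cell cycle and DNA repair, 15 fell and 2 rose in overexpression. In the knockout 7 fell and 3 rose, and in the mutant 2 fell and 0 rose. Of the chromosome 13 members, 35.4% fell and 15.7% rose in overexpression. Over all genes the shares were 27.1% and 27.7% in overexpression, 20.7% and 24.1% in the knockout, and 7.5% and 8.02% in the mutant. Ccno, a cyclin family gene of multiciliated cells, was at 0.874 and 0.809 CPM in wild type, against 0.175 and 0.34 (knockout), 0.75 and 0.752 (mutant) and 0.0892 and 0.0691 (overexpression). Its level was low in every library, and both the knockout and overexpression libraries lay below the rest, with log2 differences of -1.71 ± 0.27 and -3.38 ± 0.348 (edgeR adjusted p = 0.000101 and 8.21e-07). Cdk7, the kinase that activates other cyclin-dependent kinases, fell in overexpression from 126 and 120 CPM to 90.7 and 94, and Polk, a translesion DNA polymerase, from 22.9 and 23.1 to 17 and 17. Cdc14b, a phosphatase gene that shares exons with Aaed1, fell in the knockout from 54.1 and 55 CPM to 40.1 and 40.5. Ctsl, the lysosomal cathepsin L and the 1 member among 12 cathepsin genes, fell from 262 and 284 CPM to 177 and 180 in the knockout and 155 and 146 in overexpression. None of 26 prolactin family genes or 8 Tcstv genes met the count minimum. Ctsl shares exons with Gm49230.

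**Figure D5:**
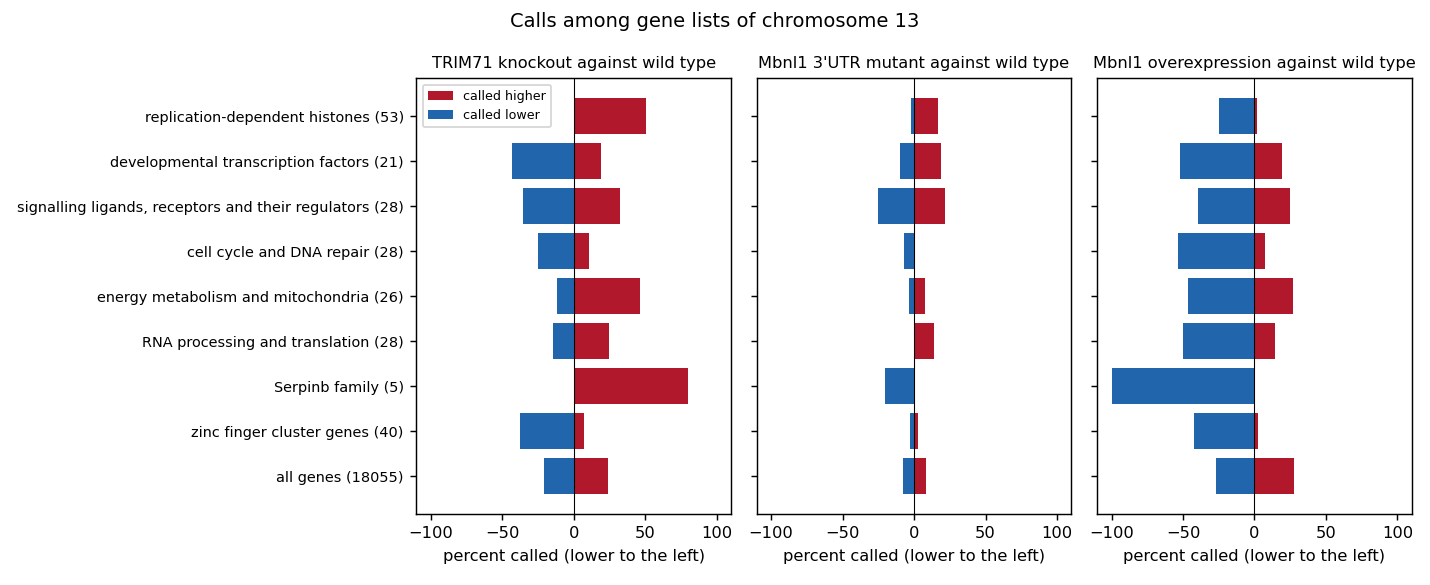
Percent of the tested members of each gene list called higher (right, red) and called lower (left, blue) against wild type, with the number tested in brackets and all genes at the bottom. In the knockout the histone and Serpinb bars lie to the right alone, and in overexpression most lists lie further to the left than all genes.

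Other members outside these lists also changed. Gpld1, an enzyme that frees GPI-anchored proteins from the membrane, was at 0.519 and 0.292 CPM in wild type, against 4.2 and 3.75 (knockout), 0.133 and 0.145 (mutant) and 0.245 and 0.265 (overexpression). The knockout libraries lay above all others, a 9.72-fold rise (edgeR adjusted p = 1.95e-09). Card19, an adaptor with a CARD domain, rose in the knockout from 4.36 and 3.94 CPM to 12.1 and 12.9 and fell in the mutant to 2.45 and 2.21. Fam208b, a protein related to a subunit of the HUSH silencing complex, fell in the knockout from 213 and 213 CPM to 123 and 124. In overexpression, Vcan, a matrix proteoglycan, fell from 58 and 55.1 CPM to 21.6 and 23, and Ssbp2, a single-stranded DNA-binding protein, from 3.23 and 3.2 to 1.03 and 1.08. Dbn1, the actin-binding protein drebrin, rose from 21.8 and 24.7 CPM to 59.5 and 56.1 in overexpression and to 34.6 and 35.2 in the knockout. The processed pseudogene Gm2830 rose in overexpression from 8.68 and 9.27 CPM to 26.4 and 27.5.

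The altered groups were also compared with each other. Between knockout and mutant 285 members differed, 154 higher and 131 lower in the knockout, 42.6% against 45.5% of all genes (24.4% higher, 21.1% lower). The largest were Gpld1, higher by log2 4.82 ± 0.223, and Foxq1, lower at -3.33 ± 0.22 (edgeR adjusted p = 2.43e-10 and 1.24e-08). Card19 was also higher in the knockout, by log2 2.42 ± 0.0862. Between overexpression and mutant 342 differed, 106 higher and 236 lower in overexpression, against 52.0% of all genes (26.8% higher, 25.2% lower). With libraries scaled by their totals alone the split was 134 and 165. Serpinb6c was lower by -1.49 ± 0.05 on the log2 scale and Hist1h1t higher by 1.83 ± 0.104 (edgeR adjusted p = 8.04e-12 and 1.83e-09).

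Between knockout and overexpression 370 members differed, 251 higher and 119 lower in the knockout, against 54.8% of all genes (27.5% higher, 27.3% lower). Scaled by library totals alone, 209 were higher and 145 lower. Ptch1 was higher in the knockout by log2 2.65 ± 0.0726 and Serpinb6c by 2.55 ± 0.0489 (edgeR adjusted p = 4.48e-09 and 9.59e-15). Gm2830 was lower in the knockout at -1.93 ± 0.0661 and BC067074 at -1.78 ± 0.0646 (edgeR adjusted p = 4.97e-12 and 8.36e-12). BC067074 was at 8.46 and 8.3 CPM in wild type, against 4.41 and 4.23 (knockout), 11.4 and 11.6 (mutant) and 14.9 and 14.9 (overexpression), so that its 4 groups did not overlap.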

How the data were processed

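RNA was sequenced as 75 nt paired-end reads from a stranded total RNA kit, per the labels' protocols. Alignment used STAR 2.5.0 and the mm10 build, per the submitters' processing notes. The deposited files hold the authors' raw counts per gene, with no normalization. Which annotation and strand setting the counting used is not given in the sources used here. Groups came from the genotype labels.

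Of 43346 genes in each file, 42462 were matched to GENCODE M21 by identifier without version, and 884 were not. The members and lists were chosen with earlier results of these data known. Genes were kept by filterByExpr (minimum count 10, total 15), scaled by TMM and tested in 1 quasi-likelihood model over all 8 libraries (edgeR 4.0.16, limma 3.58.1, R 4.3.3), with Benjamini-Hochberg adjustment over 18055 genes. CPM are TMM-normalized. The model leaves 4 residual degrees of freedom, and its estimate of biological variation was 4.17%. With 2 libraries a group, 0.333 is the smallest p an exact permutation test allows. The fit was tested on simulated data. Files were joined and figures drawn in Python 3.11.15 (pandas 2.3.3, matplotlib 3.10.9).

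Zinc finger genes were to be found from RefSeq proteins, or otherwise from symbols. No RefSeq protein table was used here, and GENCODE M21 coding sequences were translated instead, with symbols alone as an alternative. Named genes are the 10 highest and 10 lowest called members per comparison with wild type at a mean of 1 CPM or more, with no overlap between the altered and the wild-type libraries, all called zinc finger cluster members at 1 CPM or more, up to 4 called members per list, the 5 highest and 5 lowest in each other contrast, and 10 called the same way in all 3 comparisons, 113 genes in all. Other list members are named with their values. Alternatives were other scaling, filters, DESeq2 1.42.0, fits of only the groups compared, each library left out, a replicate block, other cluster rules and, chosen after seeing the data, members with over 10% shared windows left out.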

Additional observations from a re-analysis of the deposited data

Results flagged for a closer look

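Members are given here that were called in opposite directions against wild type in the TRIM71 knockout and in Mbnl1 overexpression, and that also differed between these groups by at least 2-fold in the direct edgeR contrast at a mean of 1 CPM or more. The values are log2 differences, knockout minus overexpression. Of all members tested in this contrast, 251 were higher and 119 lower in the knockout, beside 27.5% and 27.3% of all genes. The rule was not applied to genes of other chromosomes. Of the 17, 14 were higher in the knockout. They were Ptch1 at 2.65, Serpinb6c at 2.55, Nedd9 at 2.04, the transcript Gm16505 at 1.98, Fst at 1.83, Pcsk1, a prohormone convertase, at 1.77, Nlrp4f, a gene of the germline NLRP family, at 1.73, Serpinb1a at 1.64, Nqo2 at 1.42, Itga1, an integrin of collagen binding, at 1.12, Elmo1, an activator of Rac signalling, at 1.10, Aoah at 1.08, H2afy, which encodes the histone variant macroH2A, at 1.01, and Serpinb6a at 1.00. The 3 that were lower in the knockout were Gm2830 at -1.93, BC067074 at -1.78 and Irx2 at -1.58. Of the single calls against wild type, that of Nqo2 in the knockout was the smallest in size, a log2 difference of 0.12 (edgeR adjusted p = 0.0447). No group of 2 libraries was tested for a library far from the others.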

How the results depend on the processing

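Over 6 comparisons, the count of called members stayed within 1.5 times under 107 of 108 alternatives. With 1 library left out it ranged from 210 to 319 for the knockout, 60 to 135 for the mutant and 264 to 368 for overexpression against wild type, 197 to 282 for knockout against mutant, 259 to 339 for overexpression against mutant and 300 to 396 for knockout against overexpression. With DESeq2 these counts were 228, 78, 295, 231, 292 and 326. Replicate numbers did not pair libraries (correlations of -0.06 to 0.096 across genes), and a replicate block gave 276, 91, 340, 271, 331 and 371.

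Medians moved by more than the spread of library medians (0.00571) as follows, and the cause was not tested. The knockout median was -0.001 with library size only, 0.012 with genes under 1 CPM left out, 0.002 with zinc finger cluster genes left out and -0.014 with members of over 10% shared windows left out. For the mutant it was -0.03 with library size only, -0.007 with DESeq2 or median-ratio factors, and -0.009 with only the 2 groups fitted or members under 1 CPM left out. For overexpression it was -0.06 with library size only, -0.105 with genes under 1 CPM left out and with only the 2 groups fitted, and -0.088 with members of over 10% shared windows left out. With library size only the median over all genes moved as well, to 0.002 (knockout), -0.02 (mutant) and 0.044 (overexpression). Chromosome 13 minus all genes was then -0.003, -0.01 and -0.104, against -0.002, -0.01 and -0.104 in the main fit. Without 1 library the medians of the members ran from -0.007 to 0.005, -0.018 to -0.007 and -0.114 to -0.098. Windows of 10 Mb put 66.7, 75 and 83.3% of windows below the median of all genes. The clusters held 35 genes with neighbours at most 250 kb apart and 29 by symbols alone. Of the 29, 9 fell and 3 rose in the knockout and 12 fell and 1 rose in overexpression. Under either rule, fewer were called lower in the knockout without knockout replicate 1. Both rules began the last cluster at chr13:67038596, past 2410141K09Rik. By symbols alone Gm10324 was no cluster gene either, and cluster 2 with Zfp808 was no cluster.

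Of 198 comparisons of named genes, none changed sign, and 34 lost their call under at least 1 alternative, 11 of them with DESeq2. At this depth 3 counts are 0.0347 to 0.04 CPM, so differences of genes under about 1 CPM rest on few reads.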
